A study of Mus musculus with 27 samples.

Results

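The 9 genes described here make hemoglobin and heme: the α-globin genes Hba-a1 and Hba-a2, the β-globin genes Hbb-bs and Hbb-bt, and the heme synthesis enzymes Alas2, Alas1, Alad, Urod and Fech. They were taken from a list of names and were chosen with their stage values in mouse liver already known, out of 51826 genes in the deposited tables. Their own stage values are therefore given as a description, without a p-value. Bulk RNA sequencing covered whole livers of 27 wildtype BALB/c mice, an inbred laboratory strain, 1 library per animal. The 7 groups were nulliparous animals (NUL, n = 4), animals at lactation day 10 (LAC, n = 3), animals 2, 4, 6 and 8 days after their pups were weaned (ID2, n = 3; ID4, n = 4; ID6, n = 6; ID8, n = 3), and regressed animals 4 weeks after weaning (REG, n = 4). The animals were of matched age. Those with litters were mated when 10 to 12 weeks old, litter sizes were evened out, and weaning fell between lactation days 10 and 14. No group carried an added allele or drug, and a stage was compared with NUL or with an earlier stage.

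Hemoglobin is built from α- and β-globin chains, each holding a heme group. Heme is made by a chain of enzymes that begins with 5-aminolevulinate synthase, which exists as Alas2 in red cell precursors and as Alas1 in other cells, hepatocytes included. Hepatocytes use heme mainly for cytochromes P450 and other hemoproteins, and red cells still carry globin RNA when they are young. In whole liver, globin and Alas2 RNA is known mainly from red cells and their precursors held in the tissue. Alas1 RNA is known mainly from hepatocytes, and Alad, Urod and Fech serve both cell types. In bulk samples, fewer cells of a type and less RNA per cell cannot be told apart.

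The letters before the start sites are shown first, because the genes are followed below as an erythroid and a hepatocyte class. The sequences are from RefSeq (build GRCm38.p6), 5′ to 3′, and capitals mark matches on either strand, except that for Alas1 they mark the NRF1 core alone. The motifs searched were GATA-type letters (AGATAA or TGATAA, and the same ending in G), the CACCC box, the CCAAT box, the TATAA box and the core GCATGCGC of the factor NRF1. The windows are the 250 bases before the RefSeq start of Hba-a1 (chr11:32283422-32283671, plus strand), Hbb-bs (chr7:103827929-103828178, minus strand) and Alas2 (chrX:150547167-150547416, plus strand). For Alas1, 30 bases lying 176 to 205 bases before the downstream of its 2 listed starts are shown (chr9:106247906-106247935, minus strand).
Hba-a1: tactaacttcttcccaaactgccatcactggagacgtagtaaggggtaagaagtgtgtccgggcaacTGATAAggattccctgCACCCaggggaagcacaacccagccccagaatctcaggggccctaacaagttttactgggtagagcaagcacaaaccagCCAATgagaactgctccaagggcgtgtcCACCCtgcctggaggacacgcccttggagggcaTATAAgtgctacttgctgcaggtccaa
Hbb-bs: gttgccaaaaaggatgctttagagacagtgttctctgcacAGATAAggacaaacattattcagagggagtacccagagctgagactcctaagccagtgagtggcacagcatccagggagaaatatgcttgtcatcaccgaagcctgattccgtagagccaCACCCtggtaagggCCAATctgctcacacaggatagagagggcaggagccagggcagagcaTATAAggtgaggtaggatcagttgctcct
Alas2: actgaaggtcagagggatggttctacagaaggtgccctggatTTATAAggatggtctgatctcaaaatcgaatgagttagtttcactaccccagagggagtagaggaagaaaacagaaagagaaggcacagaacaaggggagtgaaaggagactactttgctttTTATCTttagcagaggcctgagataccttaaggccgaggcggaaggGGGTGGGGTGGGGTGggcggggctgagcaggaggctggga
Alas1: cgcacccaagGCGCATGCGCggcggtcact
GATA-type letters lay 183 bases before the Hba-a1 start, 210 before that of Hbb-bs and, on the opposite strand, 86 before that of Alas2. The window of Hbb-bt, the other β-globin gene, held none, and neither did those of Alas1, Alad and Urod. Letters of this type occurred in 26.5% of the 32851 promoter windows of this length, CACCC in 52%, CCAAT in 33.8% and TATAA in 22.8%. Both globin windows held the CCAAT box and, at 27 to 29 bases before the start, a TATAA box. In Alas2, 2 overlapping matches to TATAA lay 207 and 208 bases before the start. The GATA-type and CACCC letters are of the kind that the erythroid factors Gata1 and Klf1 are known to bind, and a match here is a description only. CACCC was not limited to the erythroid class, since both Alas1 windows and 1 of the 2 Alad windows held it once as well. In the Alas1 stretch shown it is in lower case. The NRF1 core, present in 2.26% of all windows, occurred on both strands before the Alas1 start in 2 overlapping matches. The Hba-a2 window held the same letters as that of Hba-a1 over all 247 bases compared, set off by 3 bases.

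The near-identical copies cannot be separated with confidence and were summed. Of the 50-base stretches of Hba-a2, 89.3% also occurred in Hba-a1, and 53.2% of those of Hbb-bs occurred in Hbb-bt. The expected counts of all 4 globin genes and of Alas2 were fractional in 27 of 27 libraries, so reads were shared out between genes. BALB/c mice carry another β-globin haplotype than the C57BL/6 reference that names Hbb-bs and Hbb-bt, so the division within the β-globins is uncertain. In the GENCODE annotation of GRCm38, Hba-a1 (ENSMUSG00000069919) and Hba-a2 (ENSMUSG00000069917) lie on chromosome 11, at 32283511 to 32284465 and 32296489 to 32297298. Hbb-bs (ENSMUSG00000052305) and Hbb-bt (ENSMUSG00000073940) lie on chromosome 7, at 103826534 to 103828096 and 103812524 to 103813996.

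Depth was 41120650 to 75664540 expected counts per library. All 3 ID8 animals, 2 of 3 ID2 animals (31 and 39) and 2 of 4 ID4 animals (13 and 15) had numbers under 200 in their titles, and all other animals had numbers of 200 or over. What the numbers stand for is not given in the sources used here, nor is whether livers were flushed of blood. Albumin (Alb), the main hepatocyte secretory product, was at 67205 to 203201 CPM in the 27 libraries, where CPM is a gene's count relative to the scaled size of its library. Alb rose in LAC from 89787 to 177115 CPM (log2 fold change 0.98, SE 0.14, edgeR adjusted p 5.42e-05), and 3 of 7 hepatocyte genes passed the joint test, where 27% of all genes did.

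Hemoglobin RNA was high in nulliparous, lactating, early involution and regressed liver and low on days 6 and 8 after weaning. The level of the 4 globin genes together, in CPM scaled by the trimmed mean of M values, was 484, 329, 701 and 390 in the 4 NUL livers. In the 3 LAC livers it was 888, 758 and 1002 CPM, above every NUL liver. The ID2 livers had 585, 403 and 1169 CPM and the ID4 livers 1006, 686, 483 and 400 CPM, and both stages overlapped NUL. The 6 ID6 livers ran from 50.6 through a median of 73.7 to 258 CPM, each below the lowest liver of NUL, LAC, ID2 and ID4. The ID8 livers, at 16.6, 31 and 21.5 CPM, lay below every other liver of the study. In the REG livers the level was 631, 495, 445 and 529 CPM, within the NUL range and below every LAC liver.

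**Figure D1:**
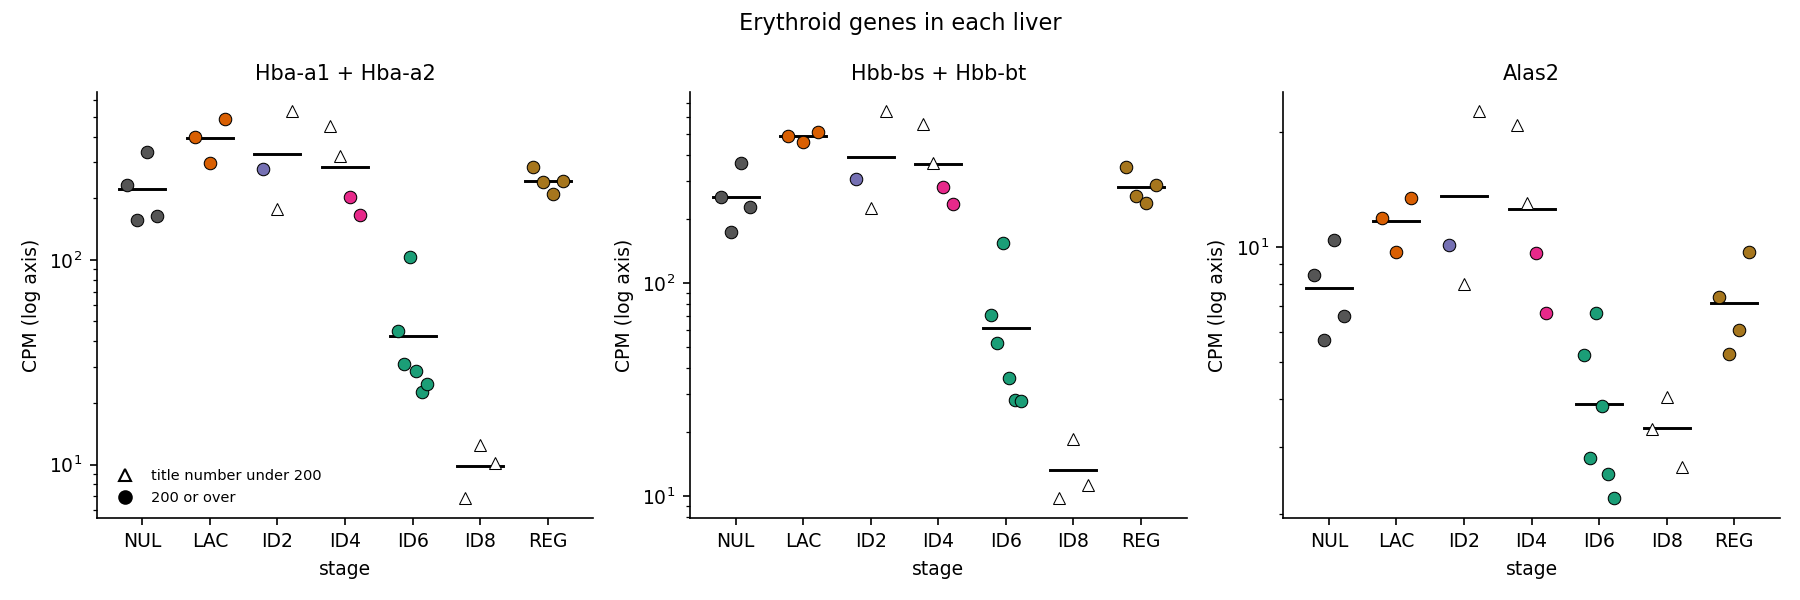
Level of the summed α-globin genes, the summed β-globin genes and Alas2 in each of the 27 livers, in CPM on a log axis, by stage. Each point is 1 animal (open triangles, title number under 200), and the bar is the stage mean. Both globin sums are lowest in the 3 ID8 livers and next lowest in the 6 ID6 livers, while Alas2 is at a similar low level in ID6 and ID8.

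Both chains showed the same order. The α-globin sum was 222 ± 84.3 CPM in NUL, 396 ± 96.1 in LAC, 329 ± 182 in ID2, 284 ± 129 in ID4, 42.5 ± 30.8 in ID6, 9.80 ± 2.80 in ID8 and 243 ± 30.8 in REG (mean ± SD). The β-globin sum was 254 ± 80.2, 487 ± 26.2, 390 ± 219, 360 ± 142, 61.4 ± 48.4, 13.2 ± 4.72 and 282 ± 48.9 CPM in the same stages. Ordered from high to low the stages ran LAC, ID2, ID4, REG, NUL, ID6 and ID8 for both sums. Neighbours in this order overlapped from LAC down to NUL, and did not overlap between NUL and ID6 or between ID6 and ID8. Across the 27 libraries the 2 sums had a Pearson correlation of 0.99 on the log2 scale, given as a description since they share libraries and depth.

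The fitted differences were large for involution day 6 and 8. From ID4 to ID6 the log2 fold change was -2.74 (SE 0.41) for the α-globin sum and -2.55 (SE 0.42) for the β-globin sum. From ID6 to ID8 it was a further -2.11 (SE 0.50) and -2.21 (SE 0.52). ID8 stood at -4.49 (SE 0.59) and -4.26 (SE 0.59) against NUL, and REG stood at 4.62 (SE 0.59) and 4.41 (SE 0.60) against ID8. LAC was higher than NUL by 0.83 (SE 0.48) and 0.94 (SE 0.49), with 95% intervals of -0.10 to 1.77 and -0.02 to 1.90. REG differed from NUL by 0.13 (SE 0.44) and 0.15 (SE 0.46), with intervals of -0.74 to 1 and -0.75 to 1.04.

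The ID6 and ID8 levels were also set within one range of title numbers. Among animals numbered 200 or over, the lowest ID4 liver had 400 CPM of hemoglobin RNA and the highest ID6 liver 258 CPM. Among animals numbered under 200, the 2 ID2 livers had 403 and 1169 CPM, the 2 ID4 livers 1006 and 686 CPM, and the highest ID8 liver 31 CPM. With the range of the numbers as a covariate, ID8 stood at -5.27 and -4.96 against NUL for the α- and β-globin sums, and REG at 5.40 and 5.11 against ID8. ID8 shares no range of numbers with NUL, ID6 or REG, so in its direct comparison with each of them the stage and the number range cannot be told apart.

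Within each chain the copies held similar shares, with a small drift for the β-globins. Hba-a2 took 58.3% ± 3.25 (SD, n = 27) of the α-globin CPM and its stage means ran from 52.9% in ID8 to 60.6% in ID6. Hbb-bt took 10.2% ± 0.488 of the β-globin CPM in LAC, 9.33% ± 0.831 in NUL, 6.45% ± 0.761 in ID6 and 6.11% ± 1.60 in ID8. The highest ID6 liver, at 7.60%, was below the lowest NUL liver, at 8.21%. By TPM, a transcript level scaled by gene length, the α-to-β ratio was 0.948 ± 0.107 in NUL and 0.804 ± 0.129 in ID6, with overlapping ranges. The embryonic Hba-x, Hbb-y, Hbb-bh1 and Hbb-bh2 had 2, 1, 0 and 0 counts over all 27 libraries. Both Hba-x counts were in 1 ID6 library. For Hbb-bh1 and Hbb-bh2, a count of 0 over the ID6 libraries allows a level of up to 0.00737 CPM.

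Alas2, the erythroid first enzyme, was low in the same stages but by a smaller margin. Its level was 8.44, 5.71, 10.4 and 6.61 CPM in NUL, 11.9, 9.68 and 13.4 in LAC, 10.1, 7.98 and 22.6 in ID2, and 20.8, 13, 9.62 and 6.70 in ID4. The ID6 livers ran from 2.20 through a median of 3.33 to 6.70 CPM, the ID8 livers had 3.35, 4.06 and 2.66 CPM, and the REG livers 7.39, 5.26, 6.08 and 9.72 CPM. ID8 lay below every NUL and REG liver, and ID6 overlapped NUL, ID8 and REG. The log2 fold change was -1.70 (SE 0.34) from ID4 to ID6, -1.21 (SE 0.43) for ID8 against NUL and 1.08 (SE 0.43) for REG against ID8. With the range of title numbers as a covariate the last 2 became -2.08 and 1.95.

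The ratio of globin RNA to Alas2 RNA also differed between stages. In TPM, the 4 globin genes together were 297 ± 25.0 times the level of Alas2 in NUL, 367 ± 4.34 times in LAC and 376 ± 83.6 times in REG. The ratio was 113 ± 19.2 in ID6 and 32.0 ± 12.6 in ID8, and neither stage overlapped NUL. Across the 27 libraries the log2 level of Alas2 had a correlation of 0.88 with that of the hemoglobin sum, and also 0.88 for deviations from the stage means. Alas2 (ENSMUSG00000025270, chromosome X, 150547375 to 150570638, plus strand) shares 372 exon bases with genes on the minus strand, among them the DNA repair gene Apex2. Apex2 stage means ran from 3.48 CPM in ID2 to 5.57 CPM in LAC and were 4.61 in ID6 and 3.81 in ID8, close to those of Alas2. Whether the counting used strand is not given in the sources used here, and the share of Alas2 counts that came from Apex2 was not tested.

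**Figure D2:**
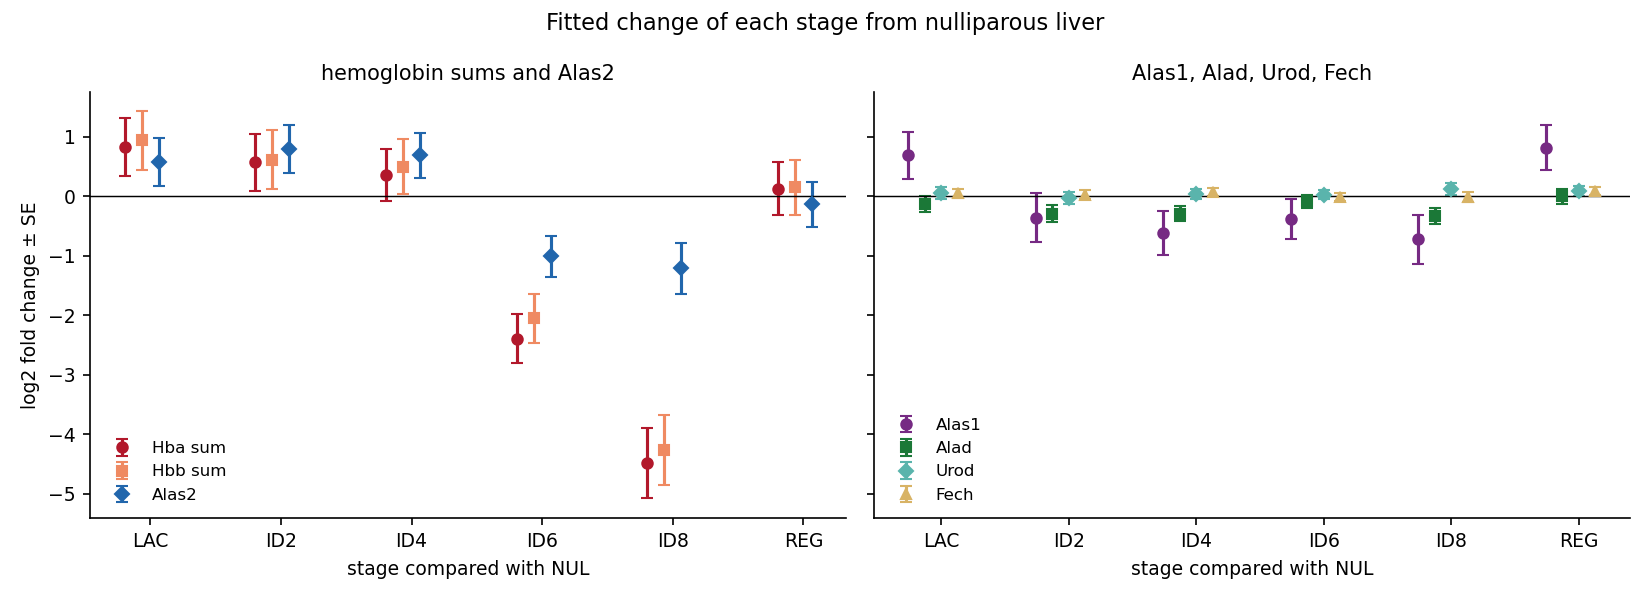
Fitted log2 fold change of each stage against NUL, with its standard error, for the globin sums and Alas2 (left) and for Alas1, Alad, Urod and Fech (right). The globin sums reach -4.49 and -4.26 in ID8 where Alas2 reaches -1.21, and Urod and Fech stay between -0.02 and 0.13 at every stage.

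How often the 7 units (both sums and the 5 enzymes) passed the all-gene test is given only beside the same share of all genes, since the units were chosen on these values. In the joint test of any difference among stages, 27% of 16426 genes passed an edgeR adjusted p under 0.05, and 4 of 7 units did (both sums, Alas2 and Alas1). Between ID6 and ID4, 3.89% of genes were higher and 4.63% lower, among them both sums and Alas2. Between ID6 and NUL 0.402% of genes were higher and 0.664% lower, and between ID8 and NUL 0.317% and 0.128%, each time with both sums among the lower ones. Between ID8 and ID6 the shares were 2.37% and 1.74%, with both sums lower. Between REG and ID8 they were 0.0122% and 0.00609%, and the 2 genes called higher were the α- and β-globin sums. Between LAC and NUL 5.19% of genes were higher and 6.00% lower, between REG and NUL 0.0244% and 0.0609%, and between ID4 and NUL 2.64% and 1.61%, with none of the 7 units among them.

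Other genes known from red cells ranged from near 0 to 147 CPM in their stage means, and 4 of those tested fell between day 4 and day 6. Of a list of 25 genes, 24 were matched and 12 passed the filter on low counts. Between ID6 and ID4, where 4.63% of all genes fell, none of the 12 rose. The list's median log2 fold change was -0.30, against 0.01 for all genes tested. With limma, DESeq2 or a fit of the 2 groups only, 2 passed. Against NUL, 3 of 12 fell in ID6, where 0.664% of all genes did, with a median of -0.26 against 0.00. This count was 0 with limma, 1 with DESeq2, 1 in a fit of the 2 groups only and 1 without animal NUL_226. In ID8, where the globins were lowest, 0 of 12 passed by edgeR against NUL or ID6, and 0 in REG against ID8. By DESeq2 1 passed in each. Of all genes, 0.317% rose and 0.128% fell in ID8 against NUL, where the list's median was -0.22 against 0.00. The test was edgeR's quasi-likelihood test with Benjamini-Hochberg adjustment over all genes. Some genes on the list, such as Mkrn1 and Epb41, are also expressed in other cell types. Genes too rare in every stage could not be tested, so these counts cover the 12 and not the whole list.

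The membrane gene Slc4a1, the band 3 anion exchanger, had 5, 12, 79 and 6 counts in NUL, 19, 20 and 24 in LAC and 15, 27, 14 and 21 in REG. In ID2 it had 12, 0 and 8 counts and in ID4 3, 10, 1 and 0, so it was low there too, where the globins were high. In ID6 it had 1 count over 6 libraries, and in ID8 8 counts, all in 1 library. It fell in ID6 against NUL (edgeR adjusted p 0.0034), and without animal NUL_226 the adjusted p was 0.0515.

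Rhag, the Rh-associated glycoprotein, had at most 5 counts in any library and was too rare to test. Trim10, known from terminal red cell differentiation, had 20, 7, 2 and 0 counts in ID4 and 2 counts over the 6 ID6 libraries. It fell from ID4 to ID6 with an edgeR adjusted p of 0.0363, which became 0.248 without animal ID4_13. Mkrn1, a ubiquitin ligase found in many cell types, fell from 34.8 to 26.3 CPM between the same stages (log2 fold change -0.40, SE 0.07, edgeR adjusted p 0.00121). Its mean was 28.4 CPM in NUL, 28.6 in LAC, 35.3 in ID2 and 31.5 in ID8, so its ID8 mean was not below that of NUL, with overlapping livers. Epb41, a skeleton protein gene of red cells and other cells, passed the joint test (edgeR adjusted p 0.0269, and 0.172 without animal ID2_39). It did not pass under 3 of 7 alternatives. Its stage means ran from 106 CPM in ID6 to 147 CPM in ID2.

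**Figure D3:**
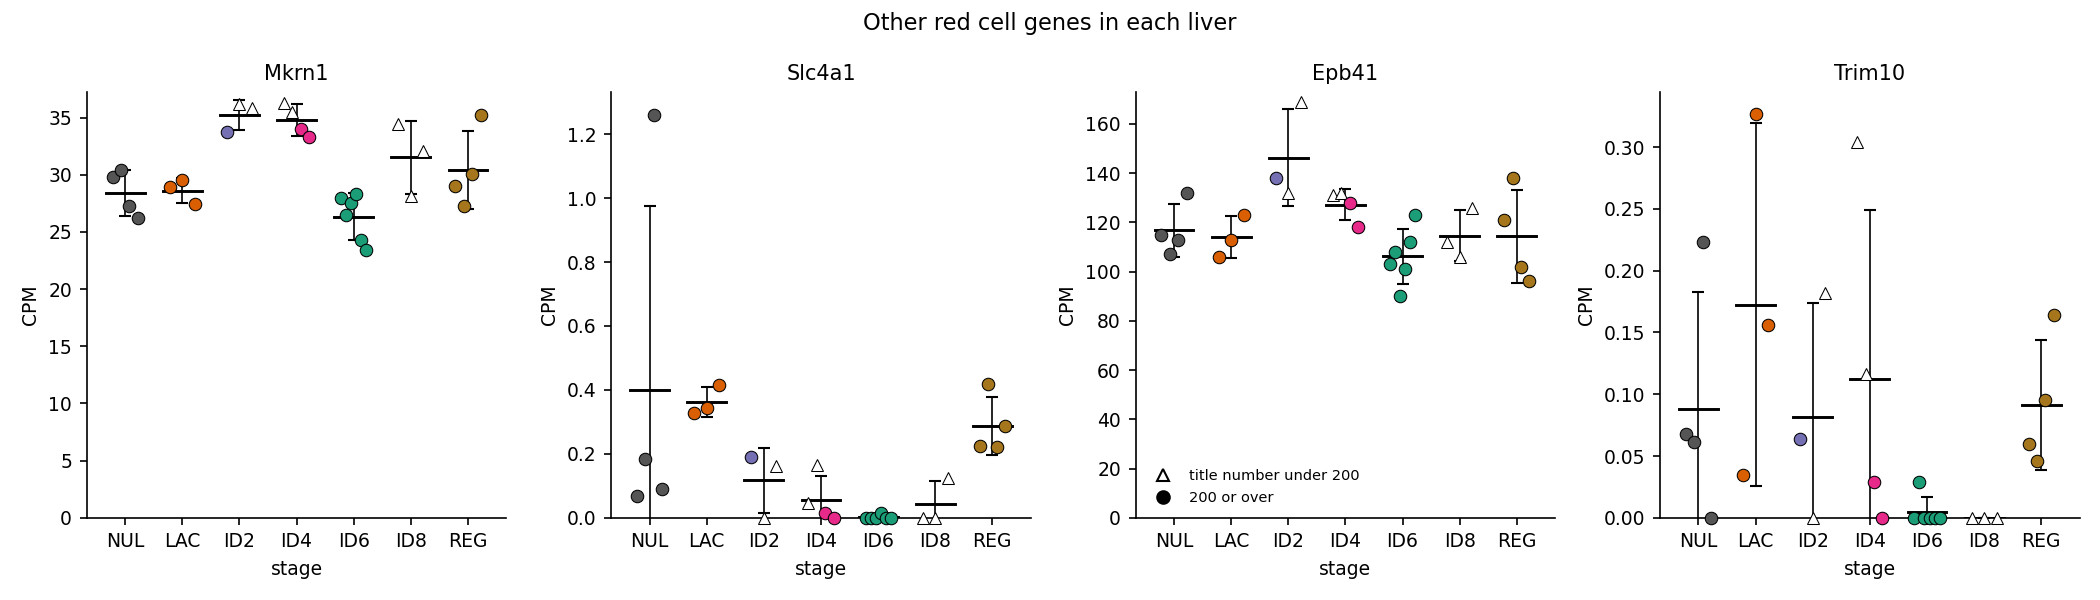
Level in CPM of Mkrn1, Slc4a1, Epb41 and Trim10 in each liver, by stage, on linear axes from 0. Points are animals (open triangles, title number under 200), bars are stage means and whiskers 1 SD. Slc4a1 has 1 count over the 6 ID6 livers, Trim10 has 0 counts in the 3 ID8 livers, and Mkrn1 has a lower mean in ID6 (26.3 CPM) than in ID4 (34.8 CPM).

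Genes of red cell precursors were tested as a separate list. Gata1, the main erythroid factor, had at most 8 counts in any library and was too rare to test. Klf1, an activator of adult β-globin, was at 0.744 CPM in NUL, 0.599 in ID6 and 0.889 in ID8 (joint edgeR adjusted p 0.256). Epor, the erythropoietin receptor, was at 1.91, 2.09 and 1.91 CPM in those stages (adjusted p 0.862). Of 6 genes tested, Nfe2 and Tfrc passed the joint test, a share near the 27% of all genes. Nfe2, a factor of erythroid and platelet lineages, rose in LAC from 0.917 to 6.25 CPM (log2 fold change 2.77, SE 0.54, edgeR adjusted p 0.00161). The transferrin receptor gene Tfrc, which takes up iron in many cell types, rose in LAC from 41.5 to 103 CPM (1.32, SE 0.32, adjusted p 0.0094, and 0.0526 without animal LAC_240).

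Genes of other blood cells were measured beside the globins. Platelet genes gave no call among stages by edgeR (0 of 6 tested, 1 at an unadjusted p under 0.05, 0 by DESeq2). Their summed level was 2.87 to 5.83 CPM in NUL, 3.24 to 5.98 in ID6 and 3.24 to 4.07 in ID8. The defining Pf4, Ppbp and Itga2b were at 0.830, 0.446 and 2.90 CPM in ID6 and 0.901, 0.434 and 2.36 in NUL. Neutrophil genes summed to 1.60 to 5.29 CPM in NUL, 2.84 to 6.54 in ID6 and 2.30 to 5 in ID8, and 1 of 8 passed the joint test. S100a8 and S100a9, abundant calcium-binding proteins of neutrophils, were at 0.951 and 1.86 CPM in ID6 and 0.742 and 1.56 in NUL, and Ngp was at 0.412 and 0.342. Lymphocyte genes summed to 3.55 to 5.44 CPM in NUL, 1.28 to 2.22 in LAC, 3.05 to 5.63 in ID6 and 2.41 to 4.82 in ID8. The T cell gene Cd3e and the B cell gene Cd79a were at 0.539 and 1.04 CPM in ID6 and 0.503 and 0.941 in NUL. The summed levels of these 3 lists overlapped between NUL and ID6 and between NUL and ID8, where the hemoglobin sums did not overlap. The list sums are a few CPM, and Itga2b alone held 2.90 of the platelet mean of 4.61 CPM in ID6. Whether the blood content of the livers differed was not tested.

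The first enzyme of heme synthesis in hepatocytes was not lower on day 6 than on day 4. Alas1 (ENSMUSG00000032786, chromosome 9, 106233455 to 106248654, minus strand), the rate-limiting first enzyme outside red cells, varied between animals as well as stages. It was at 237, 207, 449 and 298 CPM in NUL, 284, 771 and 387 in LAC, 204, 136 and 356 in ID2, and 171, 145, 206 and 258 in ID4. The ID6 livers ran from 128 through a median of 227.2 to 321 CPM, the ID8 livers had a lowest level of 140, a median of 186 and a mean of 180 CPM, and the REG livers 789, 255, 439 and 622 CPM. In TPM the 3 ID8 livers had 272, 208 and 272 of Alas1. REG did not overlap ID8, and LAC did not overlap ID4 or ID8, while every stage overlapped NUL. Its exons overlap those of 4930500F10Rik on the other strand, which had a highest stage mean of 0.00573 CPM.

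**Figure D4:**
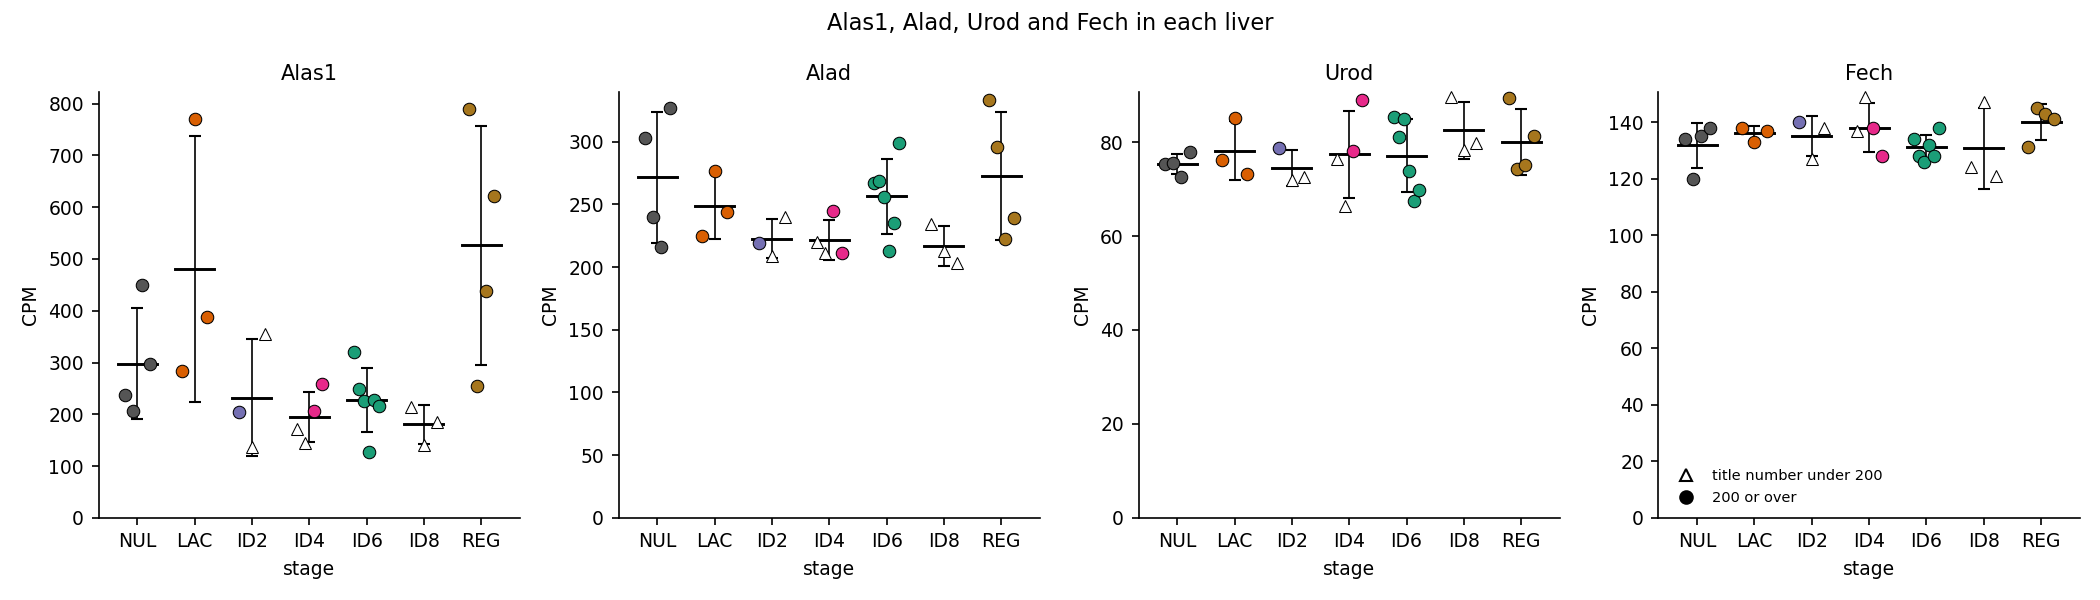
Level in CPM of Alas1, Alad, Urod and Fech in each liver, by stage, on linear axes from 0. Points are animals (open triangles, title number under 200), bars are stage means and whiskers 1 SD. Alas1 spreads from 128 to 789 CPM, whereas Fech stays between 120 and 149 CPM.

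The order of Alas1 stage means was REG, LAC, NUL, ID2, ID6, ID4 and ID8, at 526 ± 230, 481 ± 256, 298 ± 108, 232.2 ± 112, 228 ± 61.9, 195 ± 48.9 and 180 ± 37.6 CPM. Each pair of neighbours in this order overlapped. The log2 fold change of REG was 1.55 (SE 0.42) against ID8 and 0.82 (SE 0.38) against NUL. LAC stood at 0.69 (SE 0.40) against NUL, and at 0.17 without animal LAC_213. From ID4 to ID6, where the hemoglobin sums were lower, Alas1 differed by 0.23 (SE 0.34), with a 95% interval of -0.45 to 0.90. In TPM, Alas1 was 81.9 ± 16.8 times the level of Alas2 in NUL, 39.9 ± 28.5 times in ID4, 139 ± 72.1 times in ID6 and 160 ± 46.9 times in REG.

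The later enzymes were steadier. Alad (ENSMUSG00000028393, chromosome 4), which joins 2 molecules of 5-aminolevulinate, had stage means from 216.5 ± 15.9 CPM in ID8 to 272 ± 51.8 in NUL and 272 ± 51.3 in REG. Its lowest and highest livers were at 202.7 and 333 CPM. Urod (ENSMUSG00000028684, chromosome 4), which decarboxylates uroporphyrinogen, ran from 66.3 to 89.5 CPM over the 27 livers, and its stage means from 74.5 ± 3.79 in ID2 to 82.5 ± 6.09 in ID8. Fech (ENSMUSG00000024588, chromosome 18), which inserts iron into the ring in the last step, ran from 120 to 149 CPM, with stage means from 131 ± 14.3 in ID8 to 140 ± 6.23 in REG. The highest stage mean was 1.07 times the lowest for Fech, 1.11 times for Urod, 1.26 times for Alad, 2.92 times for Alas1, 4.04 times for Alas2 and 38.4 times for the hemoglobin sum. Against NUL, Fech differed in ID8 by -0.01 (SE 0.08) with a 95% interval of -0.16 to 0.14, and Urod by 0.13 (SE 0.10) with an interval of -0.06 to 0.32. The 3 ID8 livers, at 78.4 to 89.5 CPM of Urod, all lay above the NUL livers, at 72.5 to 77.9. Alad stood at -0.33 (SE 0.14) in ID8 against NUL, with an interval of -0.59 to -0.06 and overlapping livers.

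The remaining enzymes of the pathway were tested in the same fit. Of 4 such enzymes, 1 passed the joint test, where 27% of all genes did. Uros, which closes the ring, fell in LAC from 24.0 to 18.3 CPM (log2 fold change -0.39, SE 0.11, edgeR adjusted p 0.017, and 0.118 without animal LAC_240). Cpox was at 107 to 149 CPM and Ppox at 12.6 to 17.2 in the stage means, with joint edgeR adjusted p of 0.072 and 0.282. From ID4 to ID6 none of the 4 passed by edgeR or DESeq2, and none had an unadjusted p under 0.05.

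Of 10 genes for mitochondrial transport and enzyme turnover that serve the pathway, 5 passed the joint test, as did 27% of all genes. From ID4 to ID6, Slc25a28, the iron importer mitoferrin 2, rose from 13.5 to 16.5 CPM (log2 fold change 0.29, SE 0.07, edgeR adjusted p 0.0129). Abcb6, a porphyrin transporter, fell from 81.4 to 65.2 CPM (-0.32, SE 0.07, adjusted p 0.00821), a call that did not pass under 2 of 8 alternatives. Slc25a37, the mitoferrin used by erythroid cells, fell from 27 CPM in LAC to 16.9 in ID2 (-0.68, SE 0.16, adjusted p 0.0038). It rose from 16.1 CPM in ID4 to 21 in ID6 (0.39, SE 0.12, adjusted p 0.0488, and 0.151 without animal ID4_13). This rise lost its call in 6 of 10 fits with 1 animal left out. The list's median from ID4 to ID6 was -0.08, against 0.01 for all genes. In LAC against NUL, Abcb10 and Tmem14c rose by 0.32 (SE 0.10, adjusted p 0.0378) and 0.29 (SE 0.09, adjusted p 0.0403). These became 0.135 without animal LAC_240 for Abcb10 and 0.168 without animal NUL_226 for Tmem14c. With 1 animal left out, the call was lost in 6 of 7 fits for Abcb10 and 5 of 7 for Tmem14c.

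Of 8 regulators known to act on Alas1, Ppargc1a and Foxo1 passed the joint test, a share near the 27% of all genes that passed it. Ppargc1a, the fasting-induced coactivator PGC-1α, was highest in ID2 at 11.6 ± 0.262 CPM and fell from 8.17 in ID4 to 4.65 in ID6 (log2 fold change -0.81, SE 0.20, edgeR adjusted p 0.0129). Foxo1, a factor repressed by insulin, had stage means from 18.5 CPM in LAC to 27.6 in ID2 (joint adjusted p 0.0131). None of the 8 passed in LAC or REG against NUL by edgeR or DESeq2, and none had an unadjusted p under 0.05 there. Alas1 is also known to follow the time of day, and 8 of 12 clock genes passed the joint test, against 27% of all genes. Dbp, a clock output factor, was at 0.601 to 2.69 CPM in NUL, 0.824 to 6.64 in LAC, 12.1 to 42.9 in ID2, 0.859 to 2.29 in ID6 and 1.80 to 11.7 in REG. With a clock score as covariate, Alas1 stood at 0.66 in LAC and 0.66 in REG against NUL, and at 1.63 in REG against ID8.

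Some genes for the clearance of hemoglobin and heme rose on day 4 against nulliparous liver. Of 16 genes for breakdown, scavenging and transport, 12 passed the joint test, against 27% of all genes. In ID4 against NUL 4 rose and none fell, where 2.64% of all genes rose and 1.61% fell, with a list median of 0.16 against -0.02 for all genes. Of these 4, Hp, Cd163 and the heme and folate carrier Slc46a1 did not pass without animal ID4_13. With 1 animal left out, they lost the call in 3, 7 and 5 of 8 fits. Hpx, encoding hemopexin, which binds free heme in plasma, was at 3846 ± 659 CPM in NUL and 8876 ± 2418 in ID4, without overlap. It rose by 1.21 on the log2 scale (SE 0.22, edgeR adjusted p 0.00175). Hp, encoding haptoglobin, which binds free hemoglobin, rose from 2650 ± 865 to 6357 ± 1729 CPM (1.26, SE 0.30, adjusted p 0.0171, and 0.064 without animal ID4_13). Both are also acute-phase proteins. Cd163, the macrophage receptor for haptoglobin with hemoglobin, was at 24.4 CPM in NUL and 32.5 in ID4 (0.41, SE 0.11, adjusted p 0.0364, and 0.115 without animal ID4_13). Hmox1, the inducible heme oxygenase that opens the heme ring, passed the joint test (adjusted p 0.00203) with stage means from 21.6 CPM in LAC to 31.4 in REG. In LAC against NUL 4 genes of the list rose and 1 fell, where 5.19% of all genes rose and 6.00% fell. Those that rose were Slc48a1, Abcg2, Hebp1 and Pgrmc1, by 0.27 to 0.49 on the log2 scale. With 1 animal left out, Slc48a1 and Abcg2 lost the call in 3 of 7 fits, and Hebp1 and Pgrmc1 in 4 of 7. From ID4 to ID6, 6 fell, Hpx and Hp among them, and 1 rose, where 4.63% of all genes fell and 3.89% rose. Without animal ID4_13 the adjusted p of these falls was 0.149 for Hpx and 0.0935 for Hp, and the Hpx fall did not pass in 6 of 10 fits with 1 animal left out. Ugt1a1, which conjugates bilirubin, fell in LAC from 871 to 641 CPM (-0.44, SE 0.11, adjusted p 0.0105, and 0.0608 without animal LAC_200).

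Of 8 genes of macrophages that recycle red cells, 7 passed the joint test, against 27% of all genes. In LAC 5 fell against NUL and none rose, where 6.00% of all genes fell. In ID4 6 rose and none fell, where 2.64% of all genes rose. In ID6 3 rose against NUL, where 0.402% of all genes did, with a list median of 0.48 against 0.00 for all genes. With 1 animal left out, the ID6 call was lost in 7 of 10 fits for Marco, 5 of 10 for Adgre1 and 0 of 10 for Cd5l. Slc40a1, the iron exporter ferroportin, fell in LAC from 257 to 151 CPM (log2 fold change -0.77, SE 0.11, edgeR adjusted p 6.08e-05). Marco, a scavenger receptor, rose in ID4 from 2.60 to 7.75 CPM (1.57, SE 0.28, adjusted p 0.00115). Cd5l, a secreted macrophage protein, rose in ID4 from 105 to 197 CPM and was at 190 CPM in ID6 (0.86 against NUL, SE 0.16, adjusted p 0.0053). The defining Kupffer cell genes Clec4f and Timd4 rose in ID4 by 0.54 (SE 0.13, adjusted p 0.0114, and 0.0569 without animal NUL_221) and 0.61 (SE 0.15, adjusted p 0.0126, and 0.0539 without animal NUL_221). Spic, the factor of iron-recycling macrophages, was at 1.89 CPM in NUL and 2.52 in ID6 (joint adjusted p 0.0637). The summed list was at 522 to 650 CPM in NUL, 627 to 933 in ID6 and 540 to 609 in ID8, the stage with the lowest globin level. Its part in the globin levels was not tested.

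**Figure D5:**
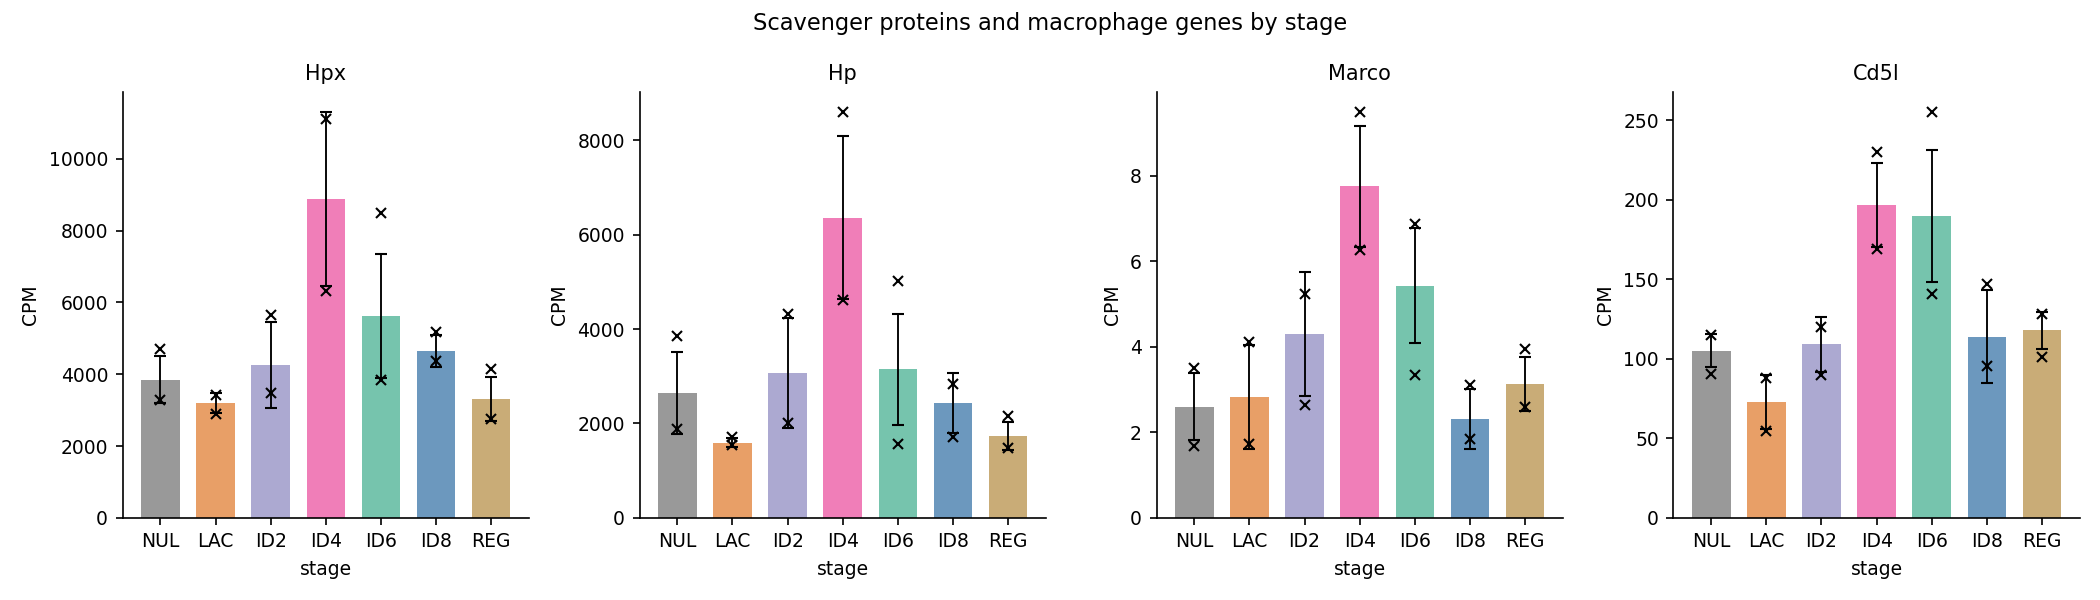
Stage means in CPM of Hpx, Hp, Marco and Cd5l (bars from 0), with whiskers of 1 SD and crosses at the lowest and highest liver of each stage. All 4 have their highest mean in ID4, and Cd5l is at 190 CPM in ID6.

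Hemoproteins, the main users of hepatocyte heme, changed gene by gene. Of 10, 7 passed the joint test, against 27% of all genes. Cyp2e1, an ethanol-oxidising cytochrome P450, fell in LAC from 4184 to 1495 CPM (log2 fold change -1.49, SE 0.20, edgeR adjusted p 2.57e-05). Cyp4a14, a fatty acid hydroxylase, fell in ID6 from 151 CPM in NUL to 16.9 CPM (-3.15, SE 0.62, adjusted p 0.012). Catalase (Cat) was at 2052 to 2338 CPM in the stage means (joint adjusted p 0.564). The list's median in ID6 against NUL was -0.12, against 0.00 for all genes.

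Genes whose levels ran most like the members were ranked among 11275 genes by Pearson correlation of log2 CPM over the 27 libraries. For the hemoglobin sum the 10 closest were Slc35d1 (0.75), Upb1, Slc46a3 and Tm9sf4 (0.68 each), Fyb2, Btg2 and Mt1 (0.67 each), and H19, Mcm6 and Pgrmc1 (0.66 each). Slc35d1, a nucleotide sugar transporter, was at 74.2 CPM in NUL, 66.5 in ID6 and 54.9 in ID8, a far narrower range than the globins. Pgrmc1 encodes a heme-binding membrane protein. For Alas1 the 5 closest were Atf4 (0.78), Tuft1 (0.77), Eef1e1 (0.75), B4galt1 and Ifrd1 (0.73 each). Atf4, the amino acid response factor, was at 81.4 ± 12.2 CPM in NUL, 102 ± 14.1 in LAC, 62.2 ± 2.57 in ID8 and 102 ± 17.8 in REG. For deviations from the stage means its correlation with Alas1 was 0.59, and that of Tuft1 was 0.73. These correlations share libraries and depth and carry no p-value.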

How the data were processed

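Expected counts and TPM per gene were deposited by the authors for each library, per the file headers, which also give each gene's length and effective length. The submitters' processing notes name STAR 2.6.1a, RSEM 1.3.1 and the build mm10 or GRCm38, without their roles. RNA was taken up in Trizol and libraries made with NEBNext Ultra, per the labels. The members and all gene lists were chosen with earlier results of these data known. The p-values measure the spread between animals.

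Expected counts were rounded, Hba-a1 with Hba-a2 and Hbb-bs with Hbb-bt were summed, and 16426 genes passed edgeR's filter by expression. One edgeR 4.0.16 quasi-likelihood fit in R 4.3.3 held all 27 libraries and 7 stages, with TMM scaling and Benjamini-Hochberg adjustment over all genes (called at 0.05). It was tested on simulated counts for ID8 against NUL, with the same spread (dispersion 0.036) for every gene. Of the changes set in well-counted genes, 19.4% of 1.5-fold, 91% of 2-fold and 100% of 4-fold ones were recovered. Genes with few counts or a wider spread were not covered. CPM are scaled by the TMM factors of the main fit, and SE, where given with a log2 fold change, is that of the main fit. The limit for a count of 0 (3 counts) covers counting error only. Alternatives were DESeq2 1.42.0 and its size factors, no filter, limma 3.58.1 on log2(TPM + 1), covariates for title number and clock score, unsummed globin genes, fits of 2 groups only, and leaving out each animal. No replicate number is shared between groups.

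From each of 14 lists (133 genes), the defining markers and up to 6 other genes called in the joint test, in order of p, could be named. The lists were other enzymes, carriers, Alas1 regulators, breakdown and scavenging, hemoproteins, red cell, precursor, embryonic globin, platelet, neutrophil, lymphocyte, macrophage, clock and hepatocyte genes. The 10 genes most like the hemoglobin sum and the 5 most like Alas1, of mean log2 CPM of at least 0, are also named. 1 gene of the red cell list is not analysed here. Some genes of the lists are counted but not reported here by name.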

Additional observations from a re-analysis of the deposited data

Results flagged for a closer look

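Animal ID6_216 lay apart from the other 5 livers of involution day 6 in its globin RNA. Its α-globin sum was 103 CPM, its β-globin sum 154 CPM and the 4 genes together 258 CPM, where the next liver, animal ID6_201, had 115 CPM. The gap to its nearest neighbour took up more of the stage's range than Dixon's 95% limit allows. Of 32 groups looked at, 3 were marked, all by this animal and by measures that overlap, and chance marks about 1 in 20. Its Alas2 level of 6.70 CPM was the highest of the stage as well. The cause was not tested.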

How the results depend on the processing

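Leaving out 1 animal at a time, 341 of 343 fitted differences of the 7 units stayed within 1 SD of the main value, and 310 of 324 did so under the other alternatives, with none of the called ones changing sign. This SD is not the SE of the fit. The α-globin sum in ID6 against ID4, at -2.74 (SE 0.41), became -3.23 without animal ID6_216 and was counted as within it. With the title number range as a covariate, ID8 against NUL became -5.27 and -4.96 for the α- and β-globin sums, and REG against ID8 became 5.40 and 5.11. For ID6 against ID4 the count of red cell genes called was 4, and 2 with limma on log2(TPM + 1), with a fit of the 2 groups only and with DESeq2. For ID6 against NUL it was 3, and 0 with limma, 1 with the 2 groups only and 1 with DESeq2, and 1 to 3 with 1 animal left out (1 without animal NUL_226). For ID8 against NUL and for REG against ID8 it was 0, and 1 with DESeq2 in each, with 4 genes at an unadjusted p under 0.05 in each. Genes called in the joint test over all lists numbered 56, 47 to 59 with 1 animal left out, and 41 (clock covariate) to 62 (DESeq2) under the other alternatives. Of the 15 genes most like the hemoglobin sum or Alas1, 5 were also found by Spearman correlation and 1 by deviations from stage means. The causes were not tested. No paired analysis was possible because the groups share no replicate numbers. Depth limits Slc4a1 and Trim10, which had at most 79 counts in any library.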

Other observations

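Among the genes that ran most like the hemoglobin sum, H19 and Mt1 had wide stage ranges of their own. H19, an imprinted fetal noncoding RNA, was at 84.4 ± 29.7 CPM in NUL, 406 ± 353 in LAC, 176 ± 45.4 in ID2, 51.9 ± 46.1 in ID6, 25.5 ± 3.83 in ID8 and 37.1 ± 20.6 in REG (mean ± SD). Its 3 LAC livers ran from 179 to 813 CPM, above every NUL liver, and its REG livers from 23.0 to 66.9 CPM. Mt1, a metal-binding metallothionein induced by zinc and stress hormones, was at 230 ± 118 CPM in NUL, 338 ± 192 in LAC, 277 ± 82.2 in ID4, 96.1 ± 44.4 in ID6, 81.6 ± 19.3 in ID8 and 116 ± 44.5 in REG. Its ID6 and ID8 livers, at 52.1 to 154 and 60.4 to 98.3 CPM, lay below every ID4 liver. REG livers had hemoglobin RNA in the NUL range, and H19 there lay largely below it. Both genes were named by their correlation with the hemoglobin sum, so these levels are a description.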
